A study of Mus musculus with 18 samples.

Results

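Hearts of mice given thyroid hormone after a period without it were compared with hearts of mice that had never been deprived, in animals labelled as lacking Med13 in the heart (cKO). The comparison rests on 6 of the 18 libraries of the series, chosen by their genotype and treatment labels: 3 cKO hearts on normal chow and 3 cKO hearts from mice fed propylthiouracil (PTU) and then injected with triiodothyronine (T3). PTU stops the thyroid gland from making hormone, and T3 is the form of the hormone that binds its receptors. The strain was C57BL/6 and the age 12 weeks. Mice of the PTU + T3 group began the PTU diet at 8 weeks of age, stayed on it for 4 weeks and then received T3 once a day on 3 days, whereas chow mice received neither agent. The groups therefore differ in both agents, and effects of the earlier deprivation and of the injected hormone cannot be told apart from these 6 libraries alone. A further 3 cKO hearts on PTU without T3, and the chow and PTU + T3 hearts of wild-type (WT) mice, 3 of each, are used below for values beside the comparison. The Cre line that drives the knockout, the deleted exons, the T3 dose and the time from the last injection to dissection are not given in the sources used here. Each library carries its own animal number, but no label states that the libraries were separate animals, so that p-values cover the spread of these 18 libraries, which may be partly technical.

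Thyroid hormone acts through the nuclear receptors encoded by Thra and Thrb, which pair with retinoid X receptors on DNA. Without hormone the receptors hold corepressors at many target genes, and hormone exchanges these for coactivators. In the mouse heart the hormone is known for raising the fast myosin heavy chain gene Myh6 and the calcium pump gene Atp2a2, and for lowering the slow myosin heavy chain gene Myh7. Med13 belongs, with Med12, Cdk8 and cyclin C, to the kinase module of Mediator, the complex that links transcription factors to RNA polymerase II.

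Levels are FPKM, fragments per kilobase of transcript scaled to the mapped fragments of the library, and values of a group are listed in the order of libraries 1 to 3. Changes are differences of mean log2(FPKM + 1), PTU + T3 minus chow, with standard errors (SE) and Benjamini-Hochberg adjusted p-values from a limma fit to all 18 libraries. Genes with an adjusted p below 0.05 are the called ones. Med13 itself stood at 6.26, 6.34 and 5.09 FPKM in the cKO chow libraries, 6.82, 6.4994 and 5.44 in the cKO PTU + T3 libraries and 5.52, 5.24 and 5.80 in the WT chow libraries. These ranges overlapped, so the gene-level value does not check the genotype labels, and the word cKO below stands for hearts labelled so. Nor did treatment move Med13 detectably, with a change of 0.07 (SE 0.108, adjusted p = 0.678). Between 11767 and 11910 genes reached 1 FPKM in the 6 libraries, and 13.98% to 17.67% of the summed FPKM came from the 10 highest genes of each. Cardiomyocyte markers dominated in every library, with a sum over 12 markers of 63607 to 93326 FPKM on chow and 80893 to 104006 on PTU + T3. A pair of libraries stood apart from their group and are named again where they bear on a result. Chow library 3 held the lowest sum of cardiomyocyte markers, 63607 FPKM, and the highest Nppa and Ankrd1 of its group, and PTU + T3 library 2 held the highest levels of the atrial genes Myl7 and Myl4.

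Hearts given T3 differed from chow hearts in many genes, in both directions. Of 12587 tested genes, 2629 (20.9%) were called, 1477 higher (11.7%) and 1152 lower (9.15%), and 207 (1.64%) were called with a change of at least 1 on the log2 scale. The shares of 11.7% and 9.15% are the background of the counts of list members below, and a count near them is given as a description only. With upper-quartile scaling the split turned to 1144 higher and 1599 lower, so the share of higher calls was 41.71% in place of 56.18%. Without chow library 3 there were 1701 calls, without PTU + T3 library 2 there were 1628, and without both there were 954, of which 926 were among the 2629. Over the 9 cKO libraries, the leading principal component (57.48% of the variance) placed the PTU hearts at -35.28 to -31.19, the chow hearts at -6.632 to 4.197 and the PTU + T3 hearts at 30.48 to 36.64. The chow hearts thus lay between the PTU and the PTU + T3 hearts on that axis.

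**Figure D1:**
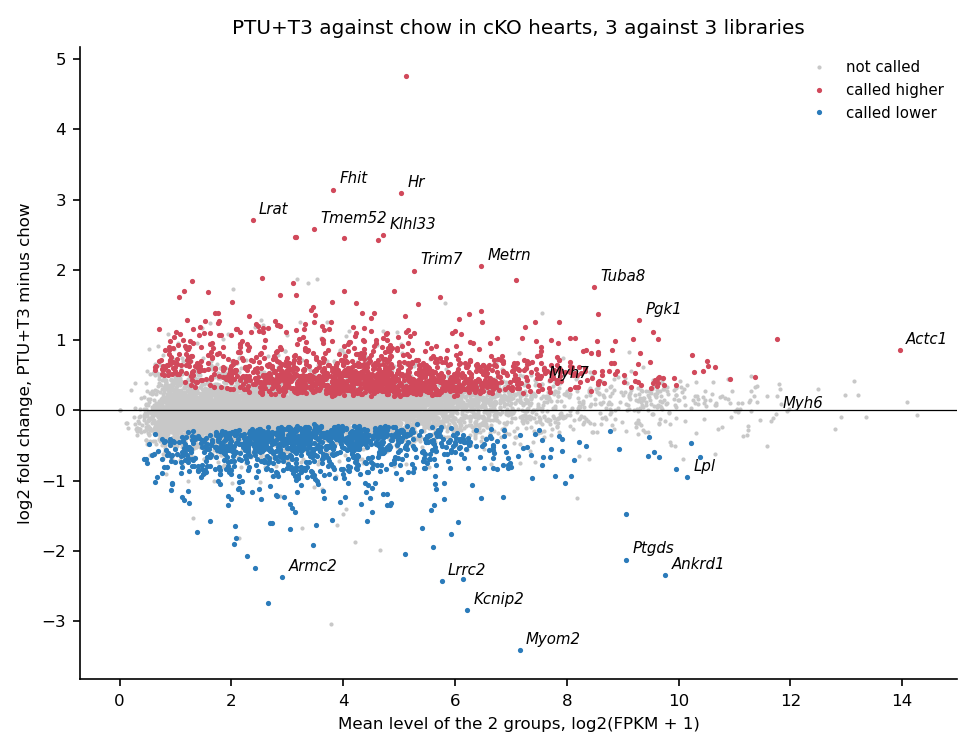
Change on the log2(FPKM + 1) scale (vertical axis) against the mean level of both groups (horizontal axis), 1 point for each of 12587 tested genes; coloured points are the 1477 genes called higher and 1152 called lower. The largest changes reach above 4 and below -3, while the abundant myosin gene Myh6 lies on the zero line.

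Some of the genes by which thyroid state is usually read in the heart overlapped the chow range again after T3. Myh6 stood at 4083, 3732 and 2728 FPKM on chow, 148, 137 and 259 on PTU and 3310.3, 3743 and 2999.7 after T3. Its chow and PTU + T3 values overlapped, far above every PTU value, and the change was -0.05 (SE 0.367, adjusted p = 0.939). Myh7 showed the opposite pattern, with 196, 113 and 188 FPKM on chow, 2456, 1662 and 3019 on PTU and 202, 239 and 188 after T3, and the difference between the first and the last group was 0.37 (SE 0.251, adjusted p = 0.322). Atp2a2 averaged 3424 ± 918 FPKM (SD, n = 3) on chow, 1143 ± 302 on PTU and 3010.5 ± 349 after T3, with a change of -0.15 (SE 0.269, adjusted p = 0.73). For Pln, which encodes the inhibitor of that pump, the change was -0.51 (SE 0.193, adjusted p = 0.0715), and it was called lower with upper-quartile scaling (adjusted p = 0.0253), with quantile normalization, with library weights and without chow library 3. The skeletal actin gene Acta1 averaged 878 ± 394 FPKM on chow, 147 ± 127 on PTU and 871 ± 180.1 after T3 (log2 change 0.09, SE 0.626, adjusted p = 0.943). For Myh6, Myh7, Atp2a2 and Acta1 the difference between PTU and chow was itself called, with log2 changes of -4.31, 3.84, -1.58 and -2.78. A p above the threshold does not show that these levels were equal.

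Other classical targets went past the chow level. Hr, which encodes the corepressor Hairless and is a textbook thyroid hormone target (chr14:70552212-70573548, plus strand), stood at 5.44, 5.36 and 7.04 FPKM on chow and 59.3, 58.2 and 55.9 after T3. Every treated heart was above every chow heart, by 9.72 times on average, and the change was 3.09 (SE 0.171, adjusted p = 5.84e-08). On PTU alone the gene averaged 1.35 ± 0.300 FPKM (SD, n = 3). Hcn2, a pacemaker channel gene, rose from 15.019, 11.8 and 20.2 to 24.2, 27.2 and 28.1 FPKM (log2 change 0.75, SE 0.2, adjusted p = 0.0149), having averaged 2.55 on PTU, but lost its call without PTU + T3 library 2 (adjusted p = 0.051) or chow library 2 (adjusted p = 0.0725). Ucp3, a mitochondrial carrier, went from 27.6, 25.9 and 17.4 to 48.2, 63.2 and 43.0 FPKM (log2 change 1.10, SE 0.308, adjusted p = 0.02) and lost its call without PTU + T3 library 2 (adjusted p = 0.0874) or chow library 3 (adjusted p = 0.096). In both genes every treated heart was above every chow heart. Among 25 tested genes listed as induced by the hormone in heart, 10 rose and 0 fell, against 11.7% and 9.15% of all tested genes, and their median change was 0.22 against 0.003 over all genes. The list, like the others, was chosen with earlier results of these data known, so its count is a description. Without PTU + T3 library 2, and without that library and chow library 3 together, 5 of the 25 were called higher.

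Genes listed as repressed by the hormone had mostly negative changes, though few were called. Of 16 tested, 4 fell and 1 rose, against 9.15% and 11.7% of all tested genes. Their median change was -0.24 against 0.003 over all genes, and 4 of the 16 had a positive change. Kcne1, a potassium channel subunit, dropped from 2.64, 5.27 and 3.04 to 0.508, 0.735 and 0.326 FPKM (log2 change -1.58, SE 0.242, adjusted p = 0.000419), and Kcnq1, which encodes its pore-forming partner, from 19.9 ± 2.54 to 13.7 ± 0.302 (log2 change -0.50, SE 0.0789, adjusted p = 0.000483). Myh7b, a further myosin heavy chain gene, fell from 18.1, 22.8 and 18.3 to 4.75, 7.26 and 6.32 FPKM (log2 change -1.55, SE 0.254, adjusted p = 0.00074), while the PTU hearts held 20.2 ± 4.39. All 3 separated completely between the groups. Mef2c, a cardiac transcription factor gene, was the member that rose, from 11.4 ± 0.740 to 14.8 ± 0.360 FPKM (log2 change 0.35, SE 0.0788, adjusted p = 0.00548). Kcnq1 overlaps Kcnq1ot1 on the opposite strand, and reads of such pairs cannot be separated, since the kit does not mark strand and strand use in counting is not stated. Myh7 overlaps Mhrt in the same way, Pln overlaps Cep85l, Thra overlaps Nr1d1 and Med13 overlaps Brip1os.

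The hormone's own receptors moved in opposite directions. Thra, the main cardiac receptor gene, stood at 28.1, 31.3 and 32.9 FPKM on chow, 57.4, 46.2 and 51.5 on PTU and 20.8, 19.0 and 20.3 after T3, so that the treated hearts lay below both other groups (log2 change -0.59, SE 0.088, adjusted p = 0.000317). Thrb was higher after T3, at 9.32, 10.6 and 10.3 FPKM against 6.59, 5.64 and 4.25 (log2 change 0.79, SE 0.145, adjusted p = 0.0015). Rxra, the shared partner receptor, fell from 20.8 ± 0.105 to 15.042 ± 0.300 FPKM (log2 change -0.44, SE 0.0932, adjusted p = 0.00356). The corepressor gene Ncor1 was called higher, with 0.32 (SE 0.0944, adjusted p = 0.0225), and lost the call under upper-quartile scaling (adjusted p = 0.0567), without chow library 3 (0.108) and without PTU + T3 library 2 (0.0796) or 3 (0.0768). Of 20 tested genes for receptors, transporters and cofactors, 4 rose and 2 fell, against 11.7% and 9.15% of all tested genes. The balance became 2 and 4 under upper-quartile scaling. In the Mediator kinase module, Ccnc, which encodes cyclin C, was the single call of 7 (1 higher and 1 lower under upper-quartile scaling and with library weights), at 5.34, 6.13 and 6.81 FPKM on chow and 9.48, 8.68 and 8.24 after T3 (log2 change 0.47, SE 0.106, adjusted p = 0.00558). Med12 (-0.15, adjusted p = 0.244) and Cdk8 (0.16, adjusted p = 0.221) were not called. Among 26 core Mediator subunits, 3 were called higher (Med29, Med21 and Med14) and 1 lower (Med25). The share called was 14.3% in the kinase module and 15.4% among the core subunits, no more than the 20.9% of all tested genes. The balance of the core subunits was 2 to 3 under upper-quartile scaling. Without chow library 3 or PTU + T3 library 2 these counts were 1 and 1, and without both none of the 26 was called.

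**Figure D2:**
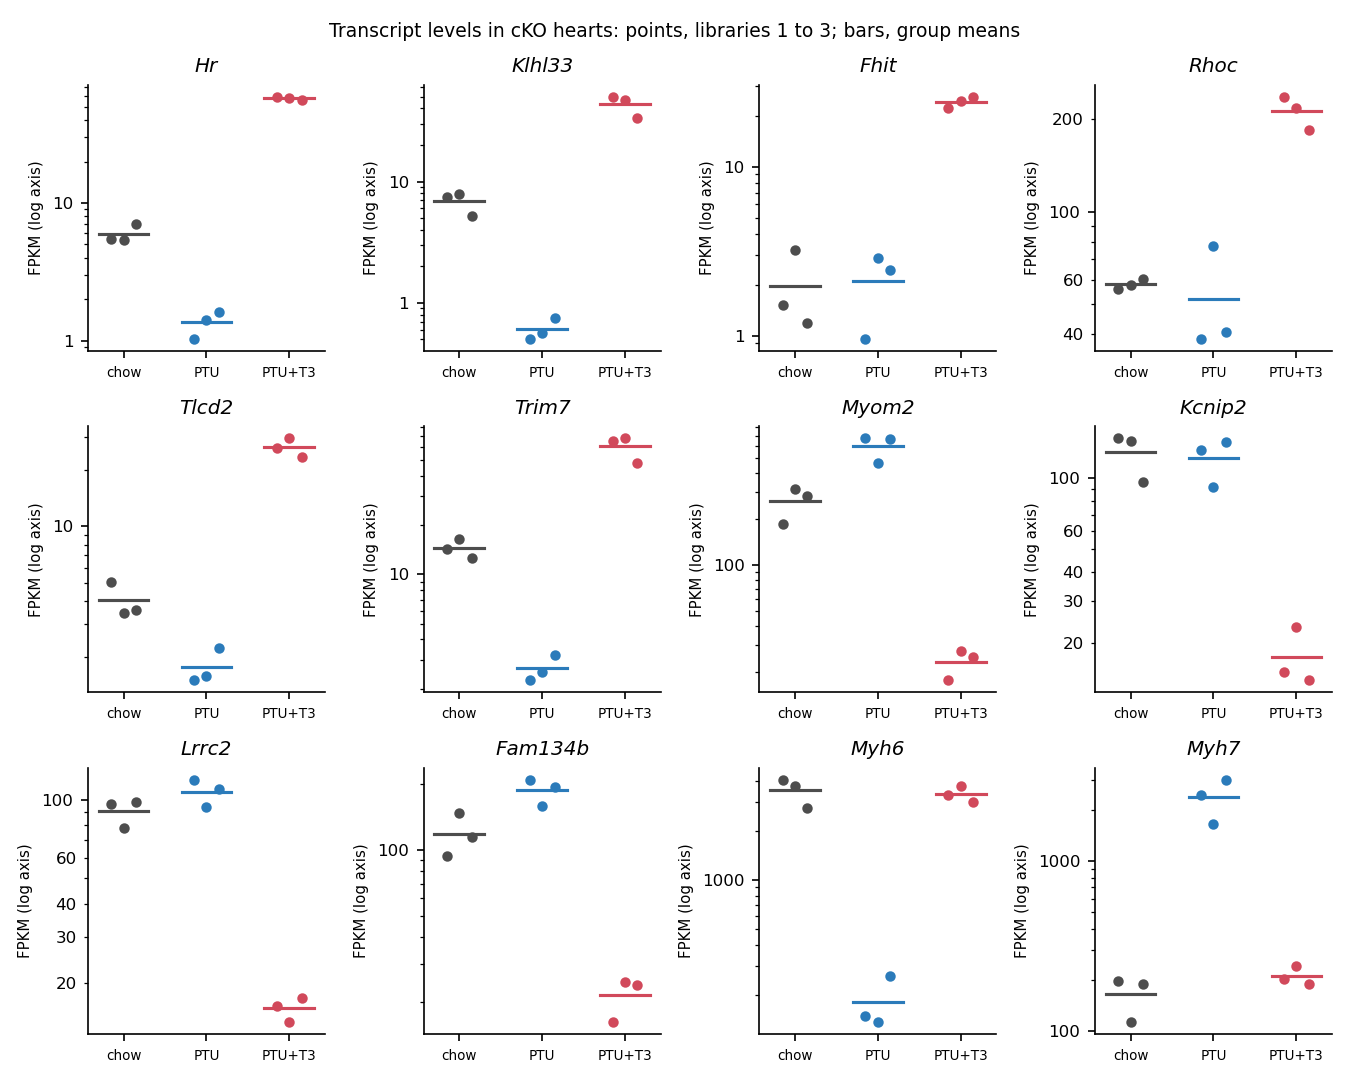
FPKM on log axes in the 3 cKO chow, 3 cKO PTU and 3 cKO PTU + T3 libraries for 12 genes; points are libraries and bars are group means. Hr, Klhl33, Tlcd2 and Trim7 lie lowest on PTU and highest after T3, Fhit and Rhoc are alike on chow and PTU and high after T3, and Myh6 and Myh7 overlap the chow range again after T3.

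The largest rises were in genes with diverse roles. The 15 taken were called genes whose chow and treated hearts did not overlap, so that separation was fixed by the choice. Among them 2 patterns across the PTU hearts could be seen. In the first, the group mean was below chow on PTU and above chow after T3. Klhl33, a kelch-like family member (chr14:50888582-50897507, minus strand), stood at 7.51, 7.94 and 5.23 FPKM on chow, 0.506, 0.567 and 0.757 on PTU and 50.1, 47.3 and 33.3 after T3, a change against chow of 2.49 (SE 0.259, adjusted p = 1.73e-05). The 3 groups did not overlap, and the treated hearts averaged 6.32 times the chow level. Trim7, a ubiquitin ligase gene, went from 14.3, 16.4 and 12.6 to 65.6, 68.3 and 48.3 FPKM (log2 change 1.99, SE 0.186, adjusted p = 5.33e-06) with 2.66 ± 0.501 on PTU. Metrn, which encodes the secreted protein meteorin, went from 26.6, 36.0 and 38.0 to 116, 153 and 159 (log2 change 2.06, SE 0.164, adjusted p = 1.30e-06) with 10.1 ± 1.40 on PTU. Tuba8, an alpha-tubulin gene of muscle and the most abundant of the 15 highest risers, went from 212, 176 and 109 to 538, 636 and 466 FPKM (log2 change 1.76, SE 0.282, adjusted p = 0.000672), and stood at 33.0 ± 10.6 on PTU. Tmem52, Rgs7 (a regulator of G protein signalling) and Tlcd2 had the same order of group means, with log2 changes of 2.58, 2.47 and 2.46 against chow. All of these kept their call under every alternative setting.

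In the second pattern, PTU was not called against chow, and every T3 heart lay above every PTU heart and, by the choice of genes, above every chow heart. Fhit, a dinucleoside triphosphate hydrolase gene (chr14:9550092-11162035, minus strand), stood at 1.53, 3.22 and 1.19 FPKM on chow, 0.957, 2.87 and 2.45 on PTU and 22.2, 24.6 and 26.0 after T3. The change against chow was 3.14 (SE 0.305, adjusted p = 9.28e-06), and that of PTU against chow was 0.06 (adjusted p = 0.927). Rhoc, a small GTPase gene, held 56.2, 57.7 and 60.4 FPKM on chow and 237, 218 and 184 after T3 (log2 change 1.85, SE 0.224, adjusted p = 6.37e-05), with 38.5, 77.2 and 40.4 on PTU. Sema6c, a semaphorin gene, rose from 1.71 ± 0.669 to 14.0 ± 3.71 FPKM (log2 change 2.47, SE 0.243, adjusted p = 8.73e-06), with 1.57, 1.55 and 1.86 on PTU. Syt12, a synaptotagmin gene, rose from 1.45 ± 0.194 to 8.18 ± 2.12 FPKM (log2 change 1.88, SE 0.184, adjusted p = 7.61e-06), with 0.859, 1.17 and 1.58 on PTU. Lrat, which encodes the enzyme that stores retinol as retinyl esters, was at 0.01, 0.166 and 0.0194 FPKM on chow, where library 1 stood at the lowest value of the table, at 0.0278, 0.0311 and 0.132 on PTU and at 16.0, 7.74 and 1.2511 after T3. The treated hearts differed among themselves, and the call (log2 change 2.71, SE 0.609, adjusted p = 0.00636) was lost when only the compared groups were fitted (adjusted p = 0.0519) and without chow library 3 and PTU + T3 library 2 together (adjusted p = 0.0776). Among the cKO hearts Lrat reached the filter level of 1 FPKM only after T3, so its place among the risers is tilted by the filter. Acsl6, an acyl-CoA synthetase gene, rose from 6.67, 4.96 and 7.72 to 37.4, 60.5 and 25.0 FPKM (log2 change 2.42, SE 0.266, adjusted p = 2.87e-05), with 4.05, 3.52 and 5.07 on PTU. The fast skeletal troponin gene Tnni2 completes the 15, at 12.7, 20.5 and 4.67 FPKM after T3 against 3.29, 0.889 and 3.72 on chow and 0.742, 0.833 and 0.805 on PTU. Its treated library 3 was close to the chow hearts, and its call (log2 change 1.82, SE 0.587, adjusted p = 0.0412) was lost under 10 of 17 alternatives, with adjusted p up to 0.18. The unnamed gene 2210407C18Rik, singled out after its values were seen, had the largest rise of all tested genes, with 1.08, 1.70 and 0.576 FPKM on chow and 97.9, 82.9 and 20.3 after T3 (log2 change 4.76, SE 0.536, adjusted p = 6.08e-05). Library 3 of the treated hearts was the lowest for both Lrat and 2210407C18Rik.

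The 15 genes that fell most had diverse roles as well. Myom2, which encodes a myomesin of the M band (chr8:15057653-15133541, plus strand), stood at 186, 313 and 281 FPKM on chow, 675, 466 and 662 on PTU and 17.6, 27.4 and 25.0 after T3. Its log2 change was the lowest of all tested genes (log2 change -3.41, SE 0.217, adjusted p = 1.63e-07), and its chow mean was 11.1 times the treated mean. Kcnip2, which encodes the KChIP2 subunit of the transient outward potassium channel (chr19:45791839-45816061, minus strand), fell from 148, 144 and 96.4 to 14.999, 23.3 and 13.9 FPKM (log2 change -2.84, SE 0.336, adjusted p = 6.67e-05), and PTU hearts held 132, 91.5 and 143. Rrad, which encodes a small GTPase that restrains the L-type calcium channel, fell from 91.5, 94.5 and 90.1 to 32.5, 16.8 and 33.9 FPKM (log2 change -1.76, SE 0.247, adjusted p = 0.000228). None of these overlapped between chow and treated hearts, as the rule that chose them required. Lrrc2, a leucine-rich repeat gene (chr9:110951545-110984066, plus strand), fell from 96.0, 77.8 and 98.1 to 16.3, 14.2 and 17.4 FPKM (log2 change -2.43, SE 0.204, adjusted p = 2.34e-06). Fam134b, which encodes a receptor for autophagy of the endoplasmic reticulum, fell from 93.6, 147 and 115 to 16.3, 24.9 and 23.9 (log2 change -2.39, SE 0.245, adjusted p = 1.49e-05).

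Several lower genes are known from the matrix, lipid metabolism or stress responses. Ptgds, a prostaglandin D synthase gene, fell from 1034, 557 and 1015 to 166, 172 and 246 FPKM (log2 change -2.12, SE 0.258, adjusted p = 6.66e-05). Scd4, a stearoyl-CoA desaturase gene, fell from 5.31, 5.49 and 5.66 to 0.418, 1.02 and 0.820 (log2 change -1.90, SE 0.418, adjusted p = 0.00537), with 5.80 ± 0.485 on PTU. Cpxm2, a carboxypeptidase-like gene, stood at 4.70, 5.78 and 13.7 FPKM on chow, 21.8, 20.3 and 27.1 on PTU and 0.977, 0.686 and 0.583 after T3 (log2 change -2.25, SE 0.305, adjusted p = 0.000183). Scx, the transcription factor scleraxis, stood at 5.74 ± 3.39 and 0.778 ± 0.185 FPKM (log2 change -1.81, SE 0.415, adjusted p = 0.00712). Chow library 3 was the highest of its group for Cpxm2 and Scx, and for Ankrd1, the stress-responsive cardiac ankyrin repeat gene, where 796, 788 and 2872 FPKM on chow compared with 368, 189 and 197 after T3. The call for Ankrd1 (log2 change -2.34, SE 0.658, adjusted p = 0.0218) was lost without that library (adjusted p = 0.107), without PTU + T3 library 2 (0.0786) and without PTU + T3 library 3 (0.065). Armc2, Klhl38 and Ubxn10 had log2 changes of -2.38, -1.92 and -1.73, and the rule that chose them required no overlap between the groups. Baiap2l1 stood at 46.5, 52.4 and 53.0 FPKM on chow, 5.79, 5.70 and 5.93 on PTU and 37.5, 5.61 and 6.61 after T3, so that the treated heart of library 1 was near the chow hearts. Its call (log2 change -2.05, SE 0.617, adjusted p = 0.031) was lost under 7 of 17 alternatives, with adjusted p up to 0.245. Reads of Baiap2l1 overlap Bri3 on the other strand, and those of Fhit overlap Fhitos.

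Promoter windows of 4 genes that separated the groups are shown because a search found in them the half-site letters AGGTCA, the hexamer that thyroid hormone receptors are known to bind, on either strand. Each is the 250 bases upstream of a RefSeq transcript start on GRCm38.p6, written along the gene's strand with the half-site in capitals (TGACCT where it lies on the opposite strand). Klhl33 (chr14:50897484-50897733, minus strand) has it 160 bases upstream, Hcn2 (chr10:79716384-79716633, plus strand) at 249 and 168, Acsl6 (chr11:54303574-54303823, plus strand) at 189 and 167, and Lrrc2 (chr9:110951295-110951544, plus strand) at 21.
Klhl33: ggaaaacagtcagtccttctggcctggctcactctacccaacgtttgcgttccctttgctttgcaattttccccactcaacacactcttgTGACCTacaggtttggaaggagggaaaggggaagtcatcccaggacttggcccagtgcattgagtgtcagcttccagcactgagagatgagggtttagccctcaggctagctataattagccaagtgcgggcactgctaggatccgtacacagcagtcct
Hcn2: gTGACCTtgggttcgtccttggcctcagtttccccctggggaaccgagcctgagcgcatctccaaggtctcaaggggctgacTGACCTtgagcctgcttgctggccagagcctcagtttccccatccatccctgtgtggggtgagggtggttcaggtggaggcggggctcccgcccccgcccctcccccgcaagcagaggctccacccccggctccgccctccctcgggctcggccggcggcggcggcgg
Acsl6: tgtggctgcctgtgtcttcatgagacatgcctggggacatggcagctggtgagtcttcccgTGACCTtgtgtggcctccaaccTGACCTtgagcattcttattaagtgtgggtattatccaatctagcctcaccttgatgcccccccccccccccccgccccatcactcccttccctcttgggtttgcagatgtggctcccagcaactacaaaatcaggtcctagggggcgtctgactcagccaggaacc
Lrrc2: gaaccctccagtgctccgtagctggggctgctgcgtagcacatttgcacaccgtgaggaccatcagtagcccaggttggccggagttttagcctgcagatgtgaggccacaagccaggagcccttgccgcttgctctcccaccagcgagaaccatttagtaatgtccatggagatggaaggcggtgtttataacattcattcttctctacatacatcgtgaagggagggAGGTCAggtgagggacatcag
The first 3 genes rose and Lrrc2 fell. The 33 panel, highest and lowest genes found in the RefSeq table had 47 windows of 300 bases (250 before to 50 after the start), and 11 of these 47 held the half-site. Over all 32851 windows of the table the share was 16.26%, and 5 windows (0.01522%) held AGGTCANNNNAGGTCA, the direct repeat with a spacer of 4 bases, on either strand. A match is a description of letters, not a binding site, and Acsl6 and Klhl33 have further windows without one.

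Sarcomere genes showed no common direction. Actc1, cardiac actin and one of the most abundant transcripts, rose from 12083, 12869.8 and 9172 to 19475, 22243 and 19548 FPKM (log2 change 0.86, SE 0.173, adjusted p = 0.0028), and the PTU hearts lay below both at 5596 ± 1062. Tcap, which encodes the titin cap of the Z disc, rose from 2192, 3282 and 1549 to 4948, 5505 and 3429 (log2 change 1.02, SE 0.304, adjusted p = 0.0257), but lost its call without any 1 of 4 libraries (adjusted p up to 0.128, without chow library 3). Csrp3, a Z disc LIM protein gene, fell from 1629.5 ± 138 to 1031 ± 126 FPKM (log2 change -0.66, SE 0.165, adjusted p = 0.00997). Of 34 thin filament and Z disc genes, 6 rose and 4 fell, which became 4 and 5 under upper-quartile scaling. Of 20 thick filament and M band genes 2 rose and 4 fell, against 11.7% higher and 9.15% lower over all tested genes. Leaving out any 1 library but chow library 2 left 4 to 6 calls in the first list, and leaving out chow library 3 left 3 in the second. Without chow library 3 and PTU + T3 library 2 the counts were 1 and 1 for the first list and 0 and 2 for the second.

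Calcium handling and ion channel genes changed in both directions. Letm1, a mitochondrial cation exchanger gene, rose from 43.0, 39.6 and 31.8 to 87.7, 102 and 94.1 FPKM (log2 change 1.30, SE 0.109, adjusted p = 2.10e-06) and had been at 13.6 ± 0.274 on PTU. Casq2, the calcium store protein of the sarcoplasmic reticulum, rose from 483 ± 54.9 to 758 ± 31.7 (log2 change 0.66, SE 0.121, adjusted p = 0.0015). Cacna1c, the pore of the L-type calcium channel, fell from 28.7, 27.8 and 27.9 to 15.9, 13.6 and 17.1 FPKM (log2 change -0.82, SE 0.113, adjusted p = 0.000157), below every PTU value as well. Cacna2d1, which encodes an auxiliary subunit of that channel, had no estimate in any cKO chow library and was not tested. In the calcium handling list of 29, 5 rose and 3 fell, against 11.7% and 9.15% of all tested genes. The counts were 4 and 4 under upper-quartile scaling, and 5 were called without PTU + T3 library 1 or 3.

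Among 34 genes listed as potassium, sodium and pacemaker channels, 8 rose and 8 fell, against 11.7% and 9.15% of all tested genes. The list is wider than its name, as it includes a connexin gene. Atp1b1, a sodium pump subunit, rose from 153, 144 and 114 to 359, 344 and 283 FPKM (log2 change 1.26, SE 0.14, adjusted p = 2.43e-05), as did the pacemaker channel gene Hcn4, from 1.99, 2.76 and 2.75 to 6.02, 5.73 and 8.49 (log2 change 1.14, SE 0.196, adjusted p = 0.000922). Gja1, which encodes connexin 43, fell from 144, 132 and 134 to 86.8, 71.3 and 71.4 FPKM (log2 change -0.83, SE 0.109, adjusted p = 0.000108), and Kcnj5, a subunit of the acetylcholine-gated potassium channel, from 34.1, 28.9 and 32.0 to 18.1, 18.1 and 14.9 (log2 change -0.86, SE 0.118, adjusted p = 0.000155). These 4 separated completely between groups, and both that fell also lay below every PTU value. Without PTU + T3 library 2, and without that library and chow library 3, 3 genes of the list were called higher and 6 lower. In adrenergic and muscarinic signalling, 2 of 30 genes rose and 3 fell, shares near those over all tested genes. Among them were the alpha-1B receptor gene Adra1b, which rose (log2 change 0.77, SE 0.153, adjusted p = 0.00259), and the phosphodiesterase gene Pde3a, which fell (log2 change -0.92, SE 0.173, adjusted p = 0.00169). The 5 calls of that list were 3 without chow library 2, PTU + T3 library 2 or PTU + T3 library 3.

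**Figure D3:**
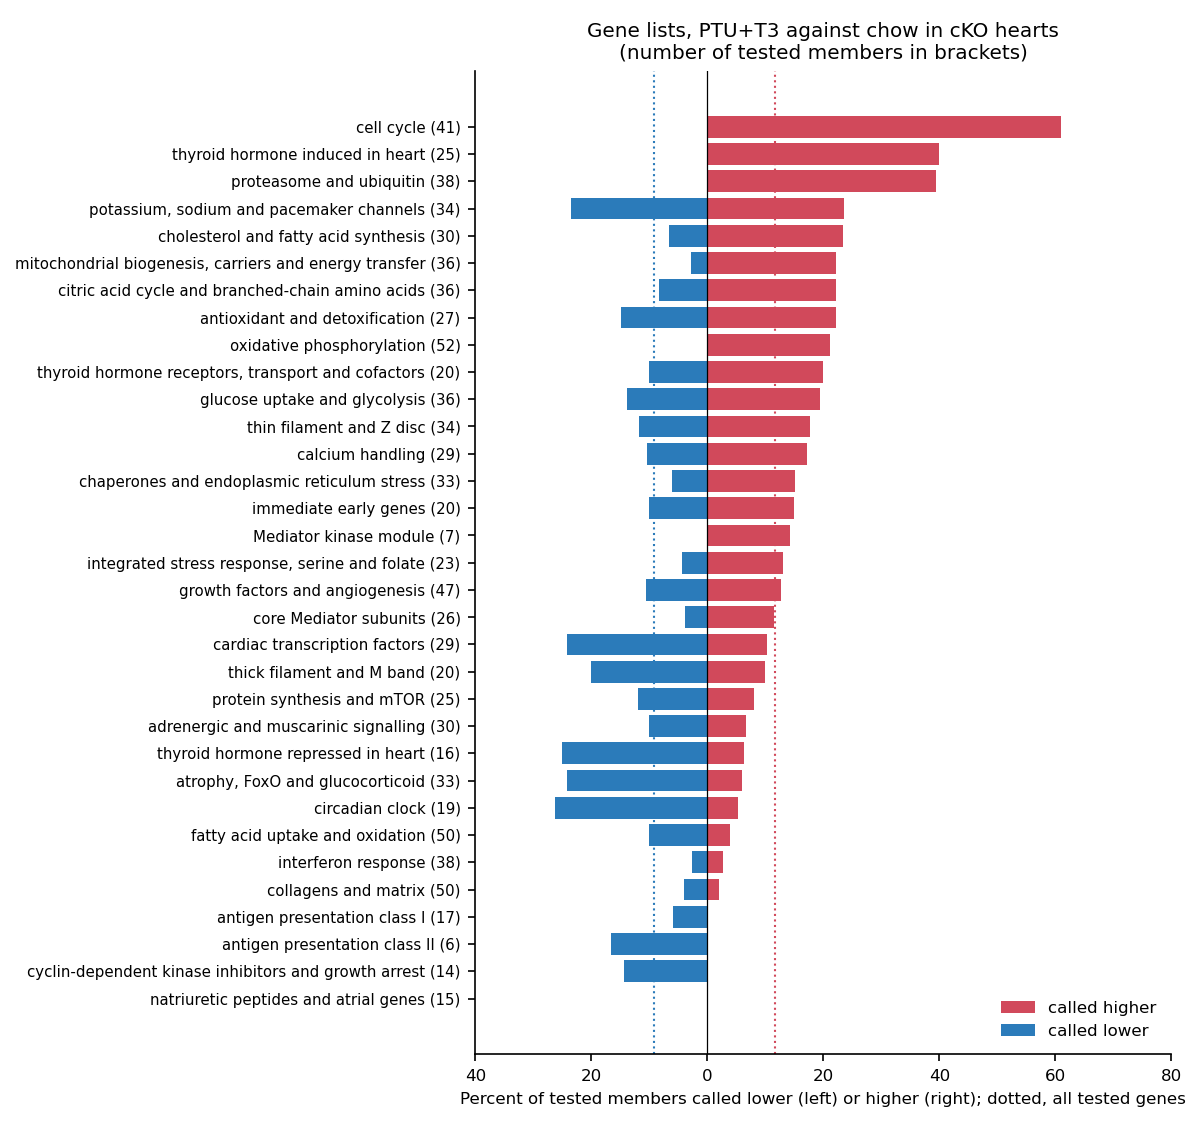
Share of the tested members of 33 gene lists called lower (left of 0) or higher (right of 0) in PTU + T3 against chow, in percent; numbers in brackets are tested members, and dotted lines mark the shares over all tested genes, 9.15% and 11.7%. The cell cycle bar includes genes that passed the filter on low values only through the treated hearts, and natriuretic peptide and atrial genes have no call.

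Of 52 oxidative phosphorylation genes, 11 rose, 0 fell and 41 were not called, against 11.7% and 9.15% of all tested genes. Their median change was 0.19 against 0.003 over all genes, and quantile normalization gave 16 higher and 3 lower calls. Cox6a1, a cytochrome oxidase subunit, rose from 265, 226 and 249 to 479.7, 524 and 472 FPKM (log2 change 0.99, SE 0.107, adjusted p = 1.84e-05), and Cycs, cytochrome c, from 495, 517 and 366 to 810.2, 883 and 712 (log2 change 0.81, SE 0.151, adjusted p = 0.00161). Chow library 3 was the lowest of its group for Cycs, as it was for the summed cardiomyocyte markers. Without it, or without PTU + T3 library 2, 5 of the 52 were called, without chow library 1 or PTU + T3 library 1 the number was 7 or 6, and without chow library 3 and PTU + T3 library 2 it was 3. Pdhb and Dlat, components of pyruvate dehydrogenase, rose by 1.02 (SE 0.169, adjusted p = 0.000718) and 0.77 (SE 0.135, adjusted p = 0.00105). In the same list of 36 citric acid cycle and branched-chain amino acid genes, 8 rose and 3 fell (7 and 7 after quantile normalization), and leaving out chow library 3 or PTU + T3 library 1 or 2 left 6 or 7 calls. Idh2, mitochondrial isocitrate dehydrogenase, ran the other way, at 1139, 1535 and 1160.4 FPKM on chow, 2423, 1668 and 2820.1 on PTU and 634, 764 and 741 after T3 (log2 change -0.83, SE 0.214, adjusted p = 0.0119), but lost its call without chow library 2 (adjusted p = 0.0561) or PTU + T3 library 1 (0.0512). Of 36 genes for mitochondrial biogenesis and carriers, 8 rose and 1 fell, the latter being Ak4, a mitochondrial adenylate kinase gene (log2 change -0.65, SE 0.159, adjusted p = 0.00948).

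Of 50 fatty acid uptake and oxidation genes, 2 rose, 5 fell and 43 were not called, against 11.7% and 9.15% of all tested genes, so that the list gave no more calls than the background. The 2 that rose were Ucp3 and Plin2. Lpl, lipoprotein lipase, fell from 1757, 1650.02 and 1116 to 775, 830.00 and 692 FPKM (log2 change -0.95, SE 0.203, adjusted p = 0.00395), Slc27a1, a fatty acid transporter gene, from 64.3, 61.6 and 42.1 to 28.0, 32.5 and 31.7 (log2 change -0.82, SE 0.202, adjusted p = 0.00939), and Lipe, hormone-sensitive lipase, from 22.2 ± 4.00 to 12.8 ± 0.547 (log2 change -0.73, SE 0.148, adjusted p = 0.00274). Angptl4, an inhibitor of lipoprotein lipase, was below chow in both other groups, at 18.9, 18.2 and 11.6 on chow, 1.17, 0.889 and 2.38 on PTU and 5.10, 8.33 and 6.83 after T3, though its call (log2 change -1.14, SE 0.372, adjusted p = 0.0411) was lost under 8 of 17 alternatives, with adjusted p up to 0.137. In glucose uptake and glycolysis, 7 of 36 genes rose and 5 fell, which became 5 and 8 under upper-quartile scaling and 7 and 11 after quantile normalization. Pgk1, phosphoglycerate kinase, had the clearest rise, from 374, 382 and 337 to 879, 919 and 859.9 FPKM (log2 change 1.28, SE 0.0846, adjusted p = 1.69e-07), while the brain-type glycogen phosphorylase gene Pygb fell from 350.3, 399 and 307 to 193, 189.9 and 167 (log2 change -0.93, SE 0.126, adjusted p = 0.000143). Of 30 cholesterol and fatty acid synthesis genes, 7 rose and 2 fell, 4 or 5 were called without any 1 PTU + T3 library, and 2 without chow library 3 and PTU + T3 library 2. Pnpla3, a lipid droplet protein gene, rose from 0.711, 0.816 and 0.494 to 3.04, 3.66 and 2.53 FPKM (log2 change 1.28, SE 0.169, adjusted p = 0.000119). Every cKO chow value was under the filter level of 1 FPKM, so its call may be tilted by the filter.

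Many cell cycle genes were called higher, from low levels. Of 41 tested, 25 were called higher, 0 lower and 16 not called, against 11.7% higher and 9.15% lower over all tested genes. On chow 17 of the 41 were under 1 FPKM in every cKO library, and 19 passed the filter of 1 FPKM in 3 libraries only with the PTU + T3 libraries, so the count of 25 is tilted towards genes that are high after T3. Of the 22 that passed with the 12 chow and PTU libraries alone, 10 were called higher and 0 lower, beside the same shares over all tested genes. Mki67, the proliferation marker Ki-67, stood at 0.321, 0.434 and 0.832 FPKM on chow, 0.305, 1.40 and 0.296 on PTU and 1.86, 2.22 and 3.21 after T3 (log2 change 1.16, SE 0.221, adjusted p = 0.00186). Cks2, a subunit of cyclin-dependent kinases, stood at 0.733, 0.631 and 0.979 FPKM on chow, 1.26, 3.00 and 1.14 on PTU and 2.38, 4.63 and 4.21 after T3 (log2 change 1.38, SE 0.244, adjusted p = 0.00111). In both genes PTU library 2 was well above the other PTU libraries, and chow library 3 was the highest of the chow group. Both were among the 17 under 1 FPKM in every cKO chow library, so their calls may be tilted by the filter as well. Mcm5, a replication helicase subunit, rose from 1.23, 1.91 and 1.60 to 4.23, 3.91 and 5.12 FPKM (log2 change 1.07, SE 0.151, adjusted p = 0.0002), and Ccna2, cyclin A2, from 1.32, 0.980 and 1.45 to 2.79, 4.34 and 4.26 (log2 change 1.08, SE 0.217, adjusted p = 0.00272). Top2a, Aurkb and Ccnd1 were also called higher, while Pcna, Plk1 and Cdk4 were not called. Leaving out 1 library left 18 to 24 higher calls, and leaving out chow library 3 and PTU + T3 library 2 left 14. With a pseudocount of 0.1, 22 were higher and 1 lower. In this bulk tissue, more cells of a type and more RNA per cell cannot be told apart, here or for any other gene. Macrophage markers summed to 503 to 676 FPKM on chow and 632 to 762 on PTU + T3, fibroblast markers to 1551 to 2034 and 1355 to 1561, and endothelial markers to 1665 to 2029.8 and 1684 to 2084. Their part in the cell cycle result was not tested. The cyclin-dependent kinase inhibitor gene Cdkn1b fell from 13.7, 14.4 and 14.7 to 9.90, 9.74 and 9.65 FPKM (log2 change -0.50, SE 0.0913, adjusted p = 0.00137), 1 of 2 that fell among 14 growth arrest genes.

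Of 38 proteasome and ubiquitin genes, 15 rose, 0 fell and 23 were not called, against 11.7% and 9.15% of all tested genes. The median change was 0.23 against 0.003 over all genes. Psmb3 rose from 172, 184 and 169.5 to 279.6, 296 and 248 FPKM (log2 change 0.64, SE 0.0969, adjusted p = 0.000361) and Psmc4 from 64.5 ± 2.08 to 85.1 ± 7.05 (log2 change 0.39, SE 0.0932, adjusted p = 0.00771). The list held 8 higher and 1 lower calls after quantile normalization, 7 higher without chow library 3, 6 without PTU + T3 library 2 and 1 without both. Of 33 genes linked to atrophy, FoxO factors and glucocorticoids, 8 fell and 2 rose. Klf15, a glucocorticoid-induced transcription factor gene that is counted among the cardiac transcription factors here, fell from 42.6, 46.6 and 27.5 to 13.6, 17.3 and 12.3 FPKM (log2 change -1.35, SE 0.247, adjusted p = 0.00159), Gadd45b, a stress gene, from 5.61, 5.65 and 8.98 to 3.29, 2.28 and 2.09 (log2 change -1.11, SE 0.216, adjusted p = 0.00227), and Bnip3, a mitophagy receptor gene, from 125 ± 16.4 to 77.4 ± 3.82 (log2 change -0.68, SE 0.114, adjusted p = 0.000797). Irs2, an insulin receptor substrate, rose from 1.78, 1.62 and 1.39 to 4.34, 6.10 and 4.11 FPKM (log2 change 1.16, SE 0.18, adjusted p = 0.000453), and it was higher than chow on PTU too, at 3.18 ± 0.665 (adjusted p = 0.0185).

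Stress, transcription factor, clock and growth factor lists gave calls in both directions, against the same 11.7% higher and 9.15% lower over all tested genes. The antioxidant list had 6 higher and 4 lower of 27 (5 and 6 under upper-quartile scaling). Nqo1, a quinone reductase gene, fell from 35.0, 40.1 and 37.4 to 17.7, 14.5 and 15.7 FPKM (log2 change -1.18, SE 0.119, adjusted p = 9.16e-06), while Txnrd1, thioredoxin reductase, rose from 18.9, 17.5 and 21.8 to 31.3, 32.8 and 29.1 (log2 change 0.66, SE 0.0811, adjusted p = 6.66e-05). The carbonyl reductase gene Cbr2 stood at 41.1, 34.1 and 42.5 FPKM on chow, 7.11, 6.83 and 8.73 on PTU and 102, 85.0 and 74.9 after T3 (log2 change 1.13, SE 0.241, adjusted p = 0.00425). Manf, a secreted factor of the endoplasmic reticulum, rose from 12.7, 15.7 and 13.8 to 27.4, 23.7 and 23.3 (log2 change 0.78, SE 0.153, adjusted p = 0.00238), in a list of 33 chaperone genes of which 5 rose and 2 fell, near the background (4 and 4 under upper-quartile scaling, and 3 calls in all without chow library 3 or PTU + T3 library 2). Of 29 cardiac transcription factors, 3 rose and 7 fell (3 and 3 without chow library 3), Gata6 among the latter (log2 change -0.52, SE 0.103, adjusted p = 0.00232) and Ppard among the former (log2 change 0.71, SE 0.12, adjusted p = 0.000852). Of 19 clock genes, 5 fell and 1 rose, 3 were called without chow library 2 or PTU + T3 library 3, and 1 without chow library 3 and PTU + T3 library 2. The time of day of dissection is not stated. Apln, the peptide hormone apelin, rose from 2.08, 3.51 and 2.06 to 7.92, 12.6 and 9.70 FPKM (log2 change 1.65, SE 0.213, adjusted p = 0.000104) after 0.648 ± 0.314 on PTU, and 6 of 47 growth factor and angiogenesis genes rose against 5 that fell, near the background (6 and 7 under upper-quartile scaling).

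Natriuretic peptide and atrial genes varied widely between hearts of 1 group. None of 15 tested was called by limma, here or under any alternative, and 0 had an unadjusted p under 0.05. Nppa, atrial natriuretic peptide, stood at 1093, 1277 and 2827 FPKM on chow and 1449, 3313 and 507 after T3, and Nppb at 161, 198 and 676 and 301, 238 and 258. The ranges overlapped in both. Myl7, the atrial myosin light chain, stood at 53.2, 106 and 18.9 on chow and 179.9, 757 and 14.0 after T3, and how much atrium each dissection held was not tested. Cd74, the class II invariant chain of antigen presenting cells, fell from 49.4, 49.3 and 136 to 14.0, 19.7 and 18.6 FPKM (log2 change -1.94, SE 0.653, adjusted p = 0.0496), and the call was lost under 10 of 17 alternatives, each library left out among them. All 6 tested class II genes had negative changes (median -1.75), but Cd74 was the only one called. Chow library 3 held the highest chow value in all 6, and in 5 of the 6 every treated heart was below every chow heart, as in 19.3% of all tested genes.

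**Figure D4:**
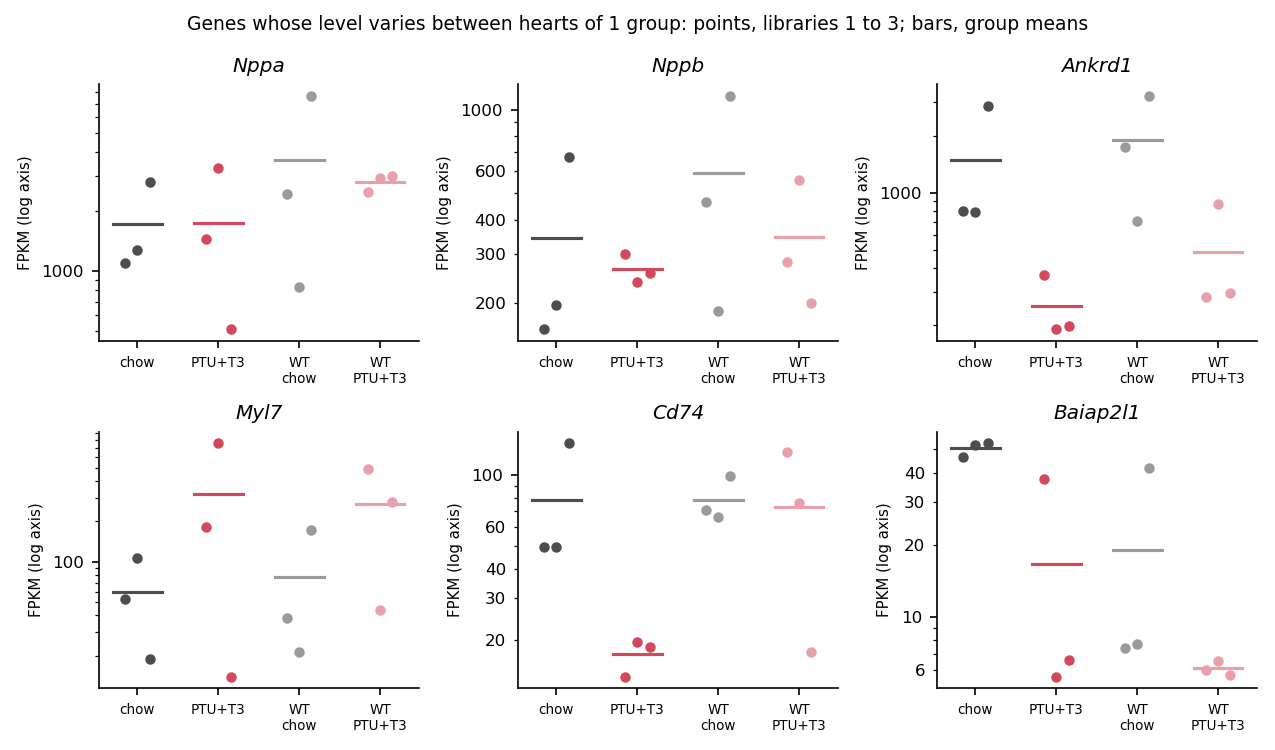
FPKM on log axes of 6 genes that vary between hearts of 1 group, in cKO and WT chow and PTU + T3 libraries; points are libraries and bars are group means. Chow library 3 is the highest cKO chow heart for Nppa, Nppb, Ankrd1 and Cd74, and Baiap2l1 takes either a high or a low level.

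Markers of other cells gave few calls, beside 11.7% higher and 9.15% lower over all tested genes. Among 12 cardiomyocyte markers the single call was Actc1. Fibroblast markers had 2 of 11 lower, Gsn (log2 change -0.65, SE 0.165, adjusted p = 0.011) and Tcf21 (log2 change -0.63, SE 0.175, adjusted p = 0.0184), and neither was called without chow library 3 (adjusted p = 0.0561 and 0.0976). Lyve1, found on lymphatic endothelium and some macrophages, was the single call of 19 macrophage markers, rising from 14.9, 19.5 and 15.3 to 35.5, 39.2 and 33.4 FPKM (log2 change 1.08, SE 0.216, adjusted p = 0.00274). Abcc9 fell and Acta2 rose among 12 pericyte and smooth muscle markers, Robo4 fell among 15 endothelial markers, and Dbh and Mbp fell among 8 markers of nerve. These calls were lost under 8 of 17 alternatives for Acta2 (adjusted p up to 0.157), 6 for Robo4 (0.177), 4 for Abcc9 (0.106), 4 of 16 for Dbh (0.0986) and 1 of 16 for Mbp (0.0662). Red blood cell genes summed to 2052 to 3498 FPKM on chow and 1272 to 2120.2 after T3 with no call among 8, and none was called among 8 adipocyte, 8 neutrophil and mast cell, 4 mesothelial and 2 lymphocyte markers.

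WT hearts, whose libraries are not shared with the comparison above, shared many of the called genes. The same contrast in WT gave 1848 calls (14.7%), 967 higher and 881 lower, and no gene was called for a difference between the genotypes. Of the 1477 genes higher in cKO hearts, 779 (52.7%) were called higher in WT, which is 80.6% of the WT list, and of the 1152 lower genes 664 (57.6%) were called lower, 75.4% of the WT list. None was called in opposite directions. Genes called higher in cKO had a positive WT change in 1464 of 1477 cases, with a median of 0.37 in WT against 0.49 in cKO, and genes called lower a negative one in 1135 of 1152, with medians of -0.39 and -0.49. The median WT change over all tested genes was -0.001. Since the called genes were chosen by their cKO change, their medians are no test of a difference in size. Across all tested genes the changes correlated with Pearson r = 0.817, a description over genes, which are not independent. The direct test of the difference by limma called 0 genes (0.00%), and 294 (2.34%) had an unadjusted p under 0.05. That test carries the spread of the chow and PTU + T3 hearts of both genotypes, so it is less sensitive than the comparison within either genotype. The lack of calls does not show that the genotypes responded alike.

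**Figure D5:**
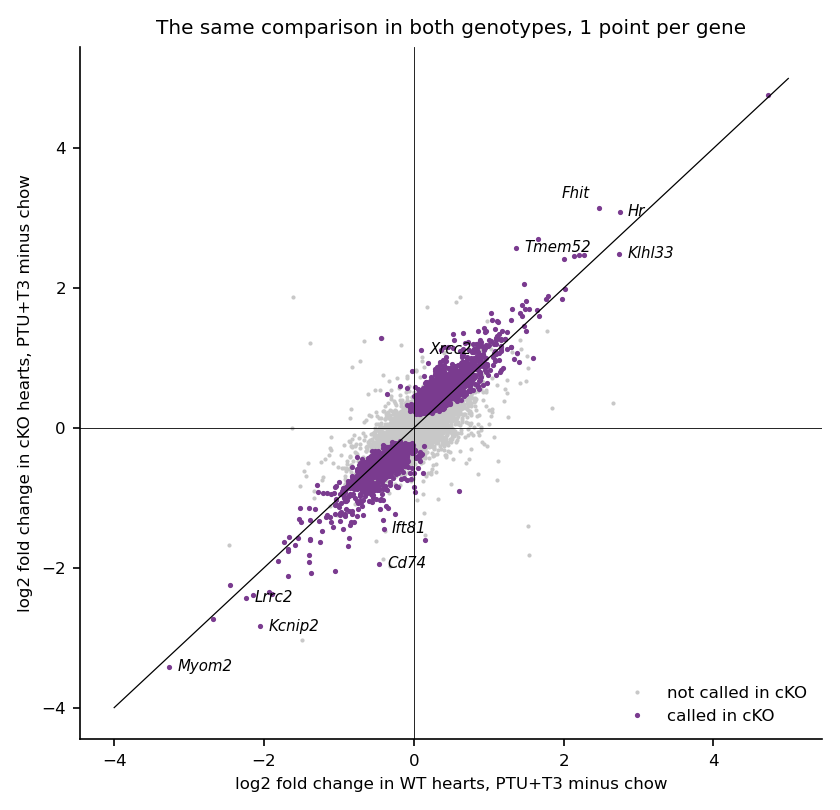
Log2 change of PTU + T3 against chow in cKO hearts (vertical axis) against that in WT hearts (horizontal axis), 1 point for each of 12587 tested genes, with the line of equal change. Genes called in cKO (purple), which were chosen by their cKO change, mostly have the same sign in WT, with a smaller median change there. Xrcc2, Ift81 and Cd74 lie off the line.

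The genes with the smallest p for the difference were Xrcc2, Tmem52, 5730408K05Rik, Gm14295 and Ift81, and all had an adjusted p of at least 0.742. Xrcc2, a gene of homologous recombination repair, stood at 3.73, 2.30 and 2.28 FPKM on chow and 7.87, 6.33 and 7.11 after T3 in cKO hearts, and at 3.09, 3.05 and 3.75 and 3.04, 3.43 and 4.38 in WT hearts. The groups separated in cKO and overlapped in WT (difference 1.02, SE 0.199, unadjusted p = 9.66e-05, adjusted p = 0.742). Ift81, a component of ciliary transport, fell from 29.6, 34.5 and 33.1 to 9.75, 10.1 and 14.3 FPKM in cKO, and stood at 17.5, 20.2 and 18.3 and 16.5, 11.8 and 13.6 in WT, where it was not called (adjusted p = 0.105; difference -1.05, SE 0.228, adjusted p = 0.763). Tmem52 rose in both genotypes, by 2.58 in cKO and 1.36 in WT (difference 1.22, SE 0.246, adjusted p = 0.742).

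Of 17 tested class I antigen presentation genes, which display peptides on the cell surface, 9 had an unadjusted p under 0.05 for the genotype difference (limma). The share over all tested genes was 2.34%, and none of the 17 passed the adjustment over all genes. The 9 cannot be taken as independent results. The summed level of the list also differed between single libraries, and its part in these p-values was not tested. That sum was 1445, 749 and 840 FPKM in WT PTU + T3 hearts and 568 to 694 in WT chow hearts. The list was also chosen with earlier results of these data known. B2m, the shared light chain, stood at 228, 242 and 244 FPKM on chow and 202, 229 and 261 after T3 in cKO hearts, and at 216, 202 and 279 and 643, 325 and 346 in WT hearts (difference -0.91, SE 0.281, adjusted p = 0.999). H2-K1, a class I heavy chain, stood at 80.984, 92.4 and 88.2 and 74.6, 82.6 and 86.1 in cKO and at 80.3, 84.5 and 95.9 and 269.7, 112 and 134 in WT. In cKO hearts the groups overlapped for both genes, and in WT every treated heart was above every chow heart, with WT PTU + T3 library 1 far above the other two. The list's median change was -0.13 in cKO and 0.43 in WT. In the related list of interferon response genes, 6 of 38 had an unadjusted p under 0.05 for the difference, and the medians were -0.04 and 0.32. Genes of that list cannot be taken as independent results either.

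Beside the comparison, PTU alone against chow in cKO hearts called 2017 genes (16.0%), 6.44% higher and 9.59% lower, and T3 after PTU against PTU called 5877 (46.7%), and both share libraries with it. For the 15 genes that rose most, the log2 changes on PTU ran from -2.29 for Tuba8 to 0.06 for Fhit, and the 8 that were called (Hr, Tmem52, Klhl33, Rgs7, Tlcd2, Metrn, Trim7 and Tuba8) were all lower on PTU. For the 15 that fell most, Myom2 (1.22, adjusted p = 0.00183) and Cpxm2 (1.53, adjusted p = 0.00409) were higher on PTU than on chow, and Baiap2l1 (-2.92, adjusted p = 0.00678) was lower. The other 12 were not called on PTU. Among them Kcnip2 changed by -0.08, Lrrc2 by 0.24 and Scd4 by 0.07, against log2 changes from PTU to PTU + T3 of -2.76, -2.67 and -1.97.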

How the data were processed

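RNA from 18 heart samples (6 groups of 3) was sequenced by the authors, who deposited FPKM values per gene. Bowtie2, Cufflinks and the mouse build mm10 are named in the submitters' processing notes; the annotation, read counts and depth are not given in the sources used here, so counting error is unknown. The deposited table held 24341 genes, with 0.01 FPKM as its lowest value, and 0 columns belonged to other samples. The 12587 genes that reached 1 FPKM in 3 or more of the 18 libraries were tested on log2(FPKM + 1), which understates changes of low genes, with limma 3.58.1 in R 4.3.3 (6 group means, 12 residual degrees of freedom, trended and robust variance) and Benjamini-Hochberg adjustment over all tested genes. The fit was also run on simulated data with genes and libraries that vary independently. The real libraries need not follow this, so that run is not used as support. Groups came from the labels.

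Genes named were a panel of 16, the 15 called genes with the highest and the 15 with the lowest change whose groups did not overlap (predicted genes left out), up to 6 called members of each list by size of change, and the 5 genes with the smallest p for the genotype difference. Names beyond these were chosen after their values were seen. The members and the gene lists were chosen with earlier results of these data known. Gene positions are GENCODE M21 on mm10. A planned share of promoters with a motif among called genes is not reported, since 79.59% of tested genes had a window. Some genes that the rule names are not reported here.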

Additional observations from a re-analysis of the deposited data

Results flagged for a closer look

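The gene 5730408K05Rik was flagged because every treated heart lay below every chow heart in cKO and above every chow heart in WT. It was picked for this pattern, and how many of all tested genes show the same was not counted. It stood at 2.33, 2.67 and 2.96 FPKM in cKO chow hearts and 1.52, 0.934 and 0.533 after PTU + T3, and at 1.71, 1.39 and 1.0046 and 3.33, 2.27 and 2.24 in WT hearts. The cKO change minus the WT change was -1.505 (limma, SE 0.31, unadjusted p = 0.000177, adjusted p = 0.742), so the difference did not pass the adjustment over 12587 genes. The gene is predicted and has no assigned function here.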

How the results depend on the processing

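The count of 2629 genes called in cKO hearts was 2373 to 2743 under other pseudocounts, filters and scalings, with only the compared groups fitted or without trend and robust variance, and 3487 with library weights. Leaving out 1 library gave 1628 to 2170 calls. Without chow library 3, 1629 of the 1701 calls were among the 2629, and without PTU + T3 library 2, 1602 of 1628 were. An alternative chosen after seeing the data, without both, gave 954 calls. The cause was not tested beyond the fewer libraries fitted. In WT hearts the count of 1848 was 857 with only the compared groups fitted, and 949 to 1752 with 1 library left out (1017 without chow library 1 and 949 without PTU + T3 library 3). The genotype difference called 0 genes under each alternative. Of the 180 called genes named by the rule, 90 kept their call under every alternative, 90 lost it under at least 1, and 0 reversed with a call. Of the 10 that were not called, Pln was called under some. No paired analysis was possible because the columns carry animal numbers that differ in every library. The table holds no counts, so the precision of low values such as those of the cell cycle genes is unknown.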

Other observations

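Baiap2l1, an adaptor of the actin cytoskeleton, took 1 of 2 separate levels over the 18 libraries. In 13 libraries it lay between 5.61 and 7.69 FPKM and in the other 5 between 37.5 and 53.0, with no value between. The 5 high libraries were all 3 cKO chow hearts, WT chow library 3 and cKO PTU + T3 library 1. The gap between the levels was 4.88-fold.

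A pair of genes had libraries with no estimate and were left out of every test. Cacna2d1, a calcium channel subunit, had none in the 3 cKO chow libraries or WT chow library 2, and stood at 24.1, 21.0 and 19.7 FPKM in cKO PTU hearts and 69.0, 68.1 and 56.4 in cKO PTU + T3 hearts. Trip10, a membrane-shaping adaptor, had none in cKO chow library 1, and the other two chow hearts held 70.9 and 59.0 FPKM against 44.0, 47.4 and 40.3 after PTU + T3.

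Scgb1c1, a secretoglobin gene of airway and nasal glands, was detected in all cKO hearts, at 19.9, 28.8 and 39.6 FPKM on chow, 182, 84.6 and 225 on PTU and 38.0, 43.8 and 58.8 after T3, and was not called between chow and PTU + T3 (limma, log2 change 0.68, SE 0.336, adjusted p = 0.171).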
